A study of Mus musculus with 2 samples.

Results

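The transcripts of 9 enzymes and enzyme subunits of the citric acid cycle were examined in mouse heart with long-read RNA sequencing, whose reads can follow a transcript through many exons. The 9 genes, Cs, Ogdh, Dlst, Suclg1, Sucla2, Suclg2, Fh1, Mdh2 and Mdh1, were chosen by name as members of the cycle or, for Mdh1, as the cytosolic partner of a cycle enzyme, and are 9 of 15031 annotated genes with reads. Heart tissue came from adult B6CASTF1/J mice, a hybrid strain, all female and aged 18 to 20 months, with no treatment named in the labels. There was 1 group, of 2 libraries made from 2 µg of RNA each, called replicate 1 and replicate 2 after the biological replicate numbers in the labels. Each library has a biosample of its own in the labels, but both point to a single donor entry, so whether the spread between them is a spread between animals is unclear from the labels. The design holds no contrast of conditions. Every test below sets replicate 1 against replicate 2 with counting error only, and every SD is over these 2 libraries, which may in part be technical.

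The citric acid cycle oxidises the acetyl group of acetyl-CoA in the mitochondrial matrix and passes its electrons to the respiratory chain, which supplies most of the ATP of the beating heart. Citrate synthase opens the cycle, the 2-oxoglutarate dehydrogenase complex, succinate-CoA ligase and fumarase carry it through its later steps, and malate dehydrogenase closes it by making oxaloacetate. Malate dehydrogenase also has a cytosolic form, which with the mitochondrial form serves the malate-aspartate shuttle.

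Replicate 1 held 630211 reads on mouse transcript models and replicate 2 held 664319, and 1 read stood for 1.61 CPM (reads per 1000000 scaled mouse reads) in replicate 1 and for 1.48 CPM in replicate 2. All 7 heart muscle markers had reads, with a sum of 39636 CPM in replicate 1, against 36273 CPM in replicate 2. By the exact binomial test with adjustment over all genes, 3 of these 7 were called higher in replicate 1 and 0 higher in replicate 2. Over all 7545 genes tested, 65 were called higher in replicate 1 and 91 higher in replicate 2. The libraries also differed in markers of other cells, from lists that were chosen with earlier results of these data known. The 5 red blood cell markers summed to 30391 CPM in replicate 1, against 11784 CPM in replicate 2, the 4 atrial markers to 1806 and 4318 CPM, and the 4 fat cell markers to 37.0 and 518 CPM, with Lep listed at 0 in both. The 3 airway markers had 0 reads in replicate 1 and 402 reads in replicate 2. By the same test all 5 red blood cell markers were called higher in replicate 1. All 4 atrial markers, all 3 airway markers and 2 of the 3 tested fat cell markers were called higher in replicate 2. What part these cells had in any value below was not tested. In bulk tissue, fewer cells of a type and less RNA per cell cannot be told apart.

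Together the 9 genes had 4659 reads in replicate 1 and 4912 reads in replicate 2, which was 0.739% of the mouse reads of each library. Their summed level was 7394 ± 146 CPM (SD, n = 2). Mdh1 was the most abundant, at 1975 ± 13.3 CPM, and ranked 71 among all annotated genes with reads. Mdh2, Fh1, Ogdh, Sucla2, Cs, Suclg1 and Dlst followed in this order, and Suclg2 was the least abundant at 185 ± 2.89 CPM, at rank 699. In this order by CPM the 2 libraries of each gene lay wholly above those of the next. Counted over known transcripts only, and scaled to these, 4 of the 9 genes kept their place. Dlst at 184 CPM was then the lowest, below Suclg2 at 247 CPM, while Ogdh at 522 CPM came after Sucla2 at 943 CPM and Cs at 645 CPM.

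**Figure D1:**
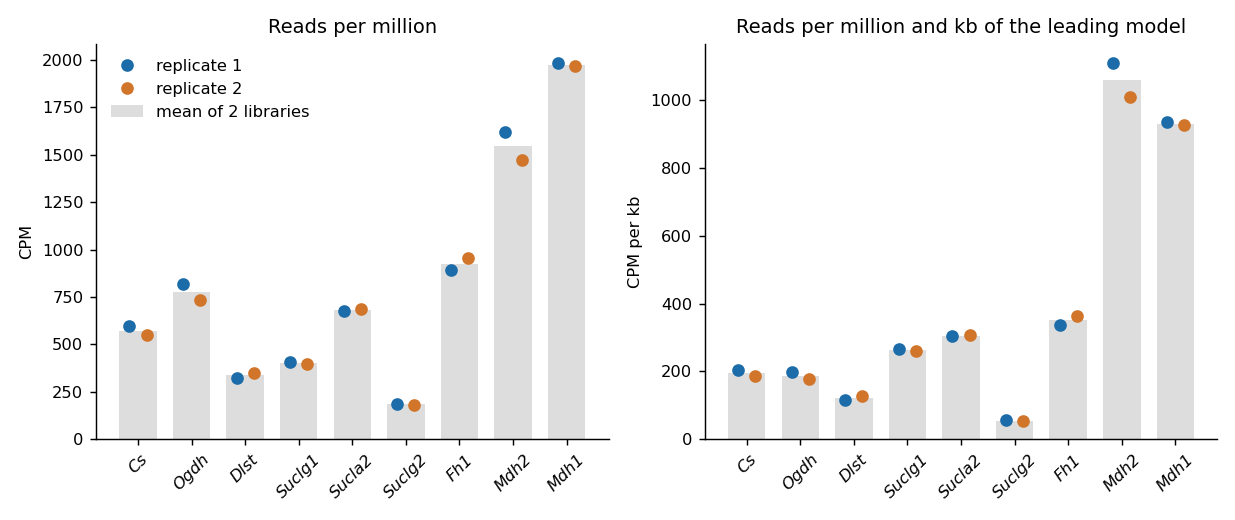
Levels of the 9 genes in each library (points, replicate 1 left of replicate 2) and their mean (grey bars), in CPM on the left and in CPM per kb of each gene's most abundant annotated transcript on the right. The malate dehydrogenase genes stand above the other 7 on both scales, and Suclg2 is lowest on both.

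Levels of different genes were also set per kb of each gene's most abundant annotated model, since its length can bear on how many reads a gene yields. Reads need not fill the annotated length, so the values per kb depend on this choice. On this scale Mdh2 came first, at 1061 ± 70.3 CPM per kb, ahead of Mdh1 at 931 ± 6.29 CPM per kb. Fh1 followed at 350 ± 17.3 CPM per kb, Sucla2 at 306 ± 3.61 and Suclg1 at 263 ± 4.97 CPM per kb. Cs at 196 ± 11.6 and Ogdh at 188 ± 13.9 CPM per kb overlapped between libraries and were the only neighbours to do so. Dlst with 122 ± 6.49 CPM per kb and Suclg2 with 54.8 ± 0.859 CPM per kb were lowest. Only 4 of the 9 genes kept their place between the orders by CPM and per kb.

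None of the 9 genes was called different between the libraries by the exact binomial test with Benjamini-Hochberg adjustment over all 7545 genes tested, of which 2.07% were called. The log2 ratio of replicate 1 over replicate 2 lay between -0.11 for Dlst and 0.15 for Ogdh, with a median of 0.032 over the 9 genes and of -0.00053 over all genes tested. At an unadjusted p under 0.05 there was 1 gene, Mdh2, with 1617 CPM in replicate 1, against 1472 CPM in replicate 2, a ratio of 1.10 (exact 95% interval 1.01 to 1.20, adjusted p = 0.449). With DESeq2 size factors, total reads, known transcripts only or other filters, 0 of the 9 genes were called as well. The exact intervals bound the differences that these depths allow. The widest was that of Suclg2, with a ratio between 0.786 and 1.33, and the narrowest that of Mdh1, between 0.933 and 1.09.

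**Figure D2:**
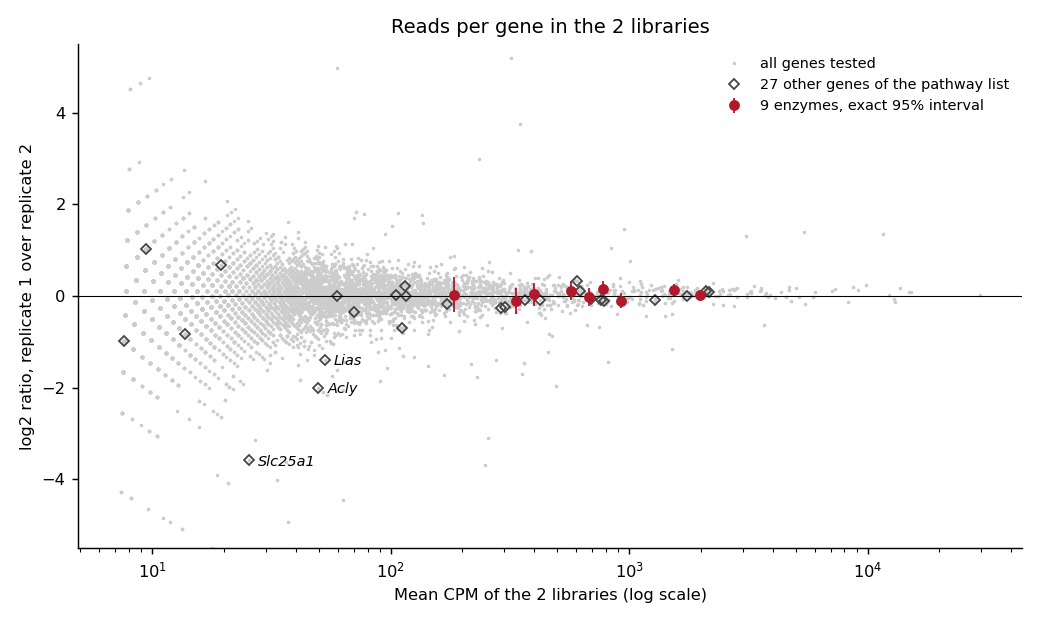
log2 ratio of replicate 1 over replicate 2 against the mean level in CPM (log scale) for all genes tested (grey), the 27 tested genes of a wider pathway list (open diamonds) and the 9 enzymes (red, with exact 95% intervals; 7 genes lie beyond the vertical axis). The 9 enzymes lie between -0.11 and 0.15, while Slc25a1, Acly and Lias are lower in replicate 1.

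The reads of a gene are sorted by how a model relates to the annotation. A known model has the introns of an annotated transcript. ISM (incomplete splice match) has a part of them, and NIC joins annotated splice sites in a new way. NNC uses a splice site that is not annotated, and the genomic class lacks the splicing of the gene. Some models deposited as ISM, in Dlst and Ogdh, also held a splice site that is not annotated. Known models took 83.2% of the reads of the 9 genes in replicate 1 (exact Clopper-Pearson 95% interval 82.1% to 84.3%) and 83.2% in replicate 2 (82.2% to 84.3%). Over all annotated genes it was 69.9% in replicate 1 and 68.6% in replicate 2. ISM models held 699 and 697 reads, which is 15.0% and 14.2% of the reads of the 9 genes, NIC models 0.515% and 0.570%, NNC models 0.859% and 1.14%, and the genomic class 0.408% and 0.875%. The last stood at 9.37% and 8.30% over all annotated genes. Of the ISM reads, 377 in replicate 1 and 401 in replicate 2 were spliced and held the last introns of an annotated transcript, 318 and 290 lay in a single exon, and 4 and 6 were of other kinds. These intervals cover the counting error of reads only, and the reads carry no molecular identifiers in the tables used.

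**Figure D3:**
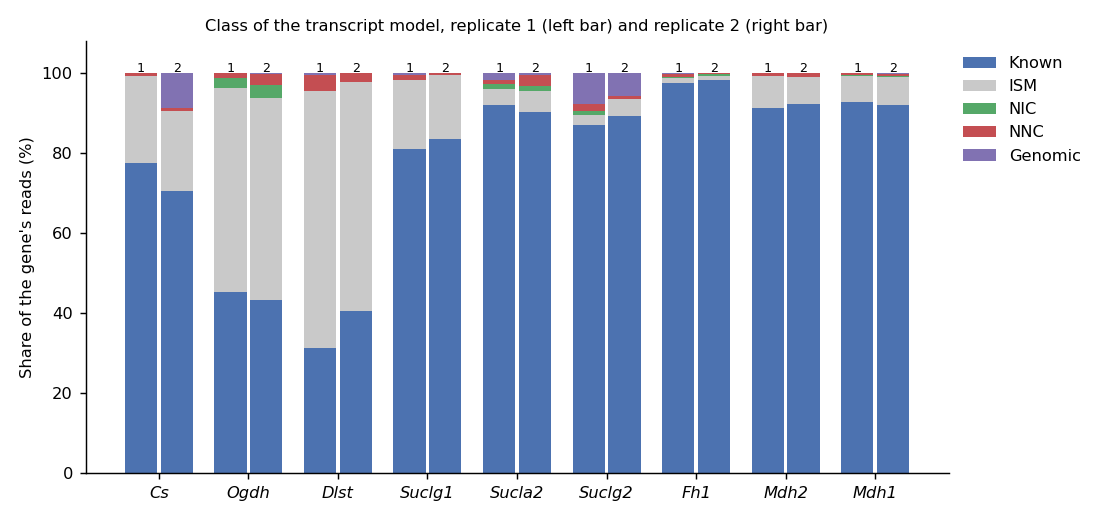
Share of each gene's reads (%) by class of the transcript model, with replicate 1 as the left bar and replicate 2 as the right bar of each pair. Known models took 90.3% or more in Fh1, Mdh2, Mdh1 and Sucla2 in both libraries, and at most 45.4% in Ogdh and Dlst.

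The share of known models ran from 97.7% in replicate 1 and 98.3% in replicate 2 for Fh1 down to 31.3% and 40.4% for Dlst. Across all genes this share was lower for longer transcripts. Among genes that reached 50 reads in both libraries, the median share of known models was 92.7% and 92.3% where the most abundant annotated model was under 1500 bases, and 65.8% and 66.3% where it was 3500 bases or longer. Ogdh, whose leading model has 4127 bases, had 45.4% and 43.2%, between the quartiles of its length class. Dlst, at 2764 bases, lay below the lower quartile of genes of 2500 to 3500 bases (52.1% and 53.9%), and Fh1, at 2636 bases, above the upper one (86.9% and 88.9%). The known reads of Fh1 include those of Fh1-203, a chain of 3 exons described below. Fh1-201 alone held 58.1% and 61.8% of the Fh1 reads, which lies between these quartiles. The quartiles are of all known models of a gene together, so the share of 1 model is not a like measure. By Fisher's exact test the share of known models was called different between the libraries in 0 of the 9 genes, against 0.147% of 4765 genes. At an unadjusted p under 0.05 there was again 1, Cs (exact p = 0.0294, adjusted p = 1). For a further test the leading model was the most abundant of any class but the genomic, which in Dlst was its last exon alone. Its share was called in 0 of the 9 genes, against 1.73% of 4223 genes tested by Fisher's exact test. At an unadjusted p under 0.05 it was 0 as well. The share of Dlst-201 in the Dlst reads was not tested.

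The 2 libraries held 213 different models of the 9 genes, and 91 of these were found in both. The shared models carried 98.4% of the genes' reads in replicate 1 and 97.4% in replicate 2. Of 86 new spliced models (NIC or NNC), 68 rested on 1 read, 13 were found in both libraries and 5 reached 5 reads over both. Of 98 ISM models, 62 were found in both.

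How far reads reached from the 3′ end to the 5′ end differed between the genes. In Suclg2 the first intron of the leading model was crossed by 103 reads and the last by 107 in replicate 1, so that the first stood at 96.3% of the last (exact 95% interval 90.7% to 99.0%), and at 95.7% (90.2% to 98.6%) in replicate 2. In Sucla2, Mdh1 and Mdh2 the first intron stood at 94.1% to 97.8% of the last in the 2 libraries. Cs had 92.1% and 88.6%, Suclg1 84.0% and 86.4%, and Dlst 76.4% and 83.9%. Fh1 with 59.3% and 62.6% and Ogdh with 46.9% and 42.5% were lowest, in 2 different ways that are described with each gene. The Ogdh values count only the first exon of Ogdh-201. Reads entering exon 2 of Ogdh from any first exon stood at 63.8% and 59.0% of the last intron, beside 59.3% and 62.6% in Fh1.

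**Figure D4:**
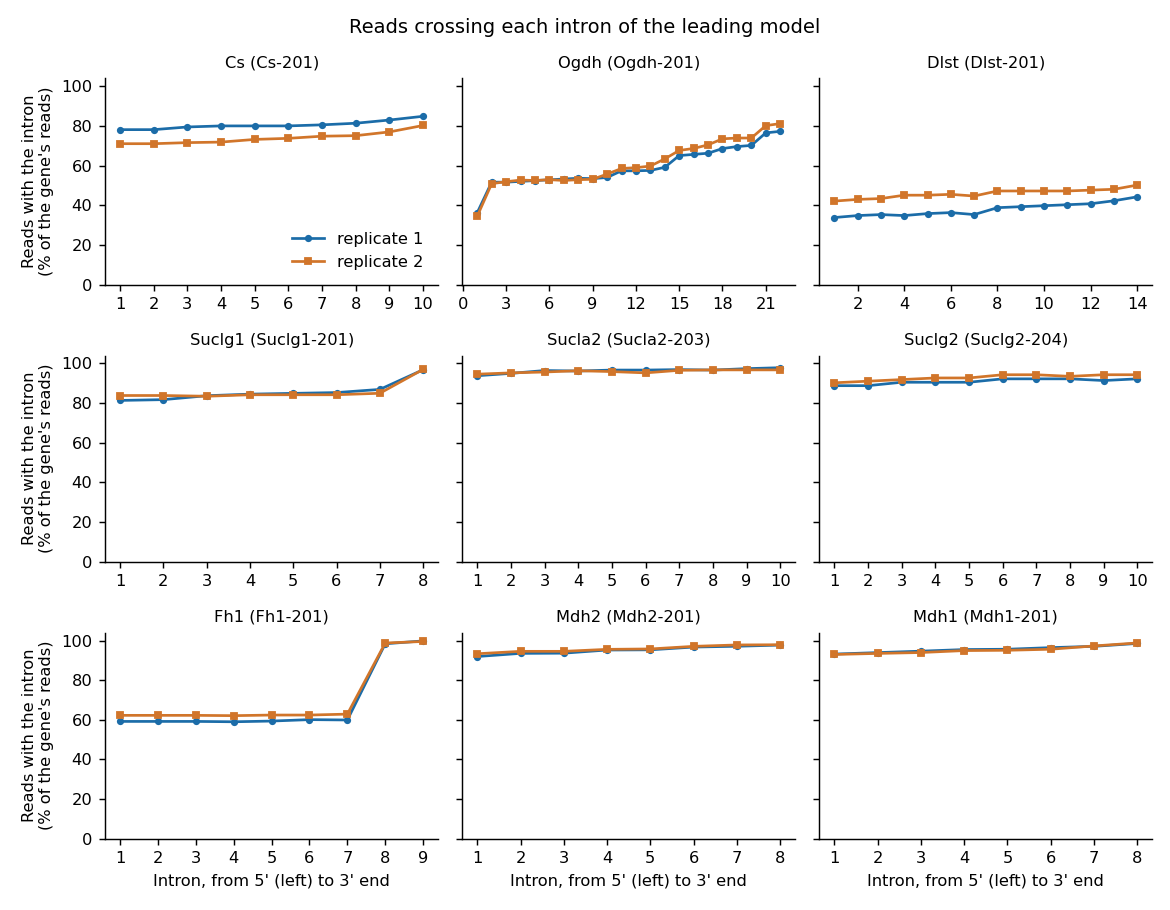
Reads that hold each intron of the leading model, as % of the gene's reads, from the 5′ end (left) to the 3′ end, for replicate 1 (blue circles) and replicate 2 (orange squares). Ogdh falls in small steps and at its first intron, where other first exons also lead into exon 2. Fh1 falls in 1 step between introns 8 and 7. Dlst stays under 51% throughout, since about as many of its reads lie in the last exon alone.

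Citrate synthase, which condenses acetyl-CoA with oxaloacetate, is encoded by Cs on chromosome 10 (chr10:128337734-128362479 of mm10, plus strand). Cs had 371 reads in replicate 1 and 370 reads in replicate 2, which is 597 CPM and 549 CPM. All its known reads belonged to Cs-201, a coding transcript of 11 exons, with 288 reads in replicate 1 and 261 in replicate 2. Known models thus made up 77.6% of its reads in replicate 1 and 70.5% in replicate 2. The reads of the last exon were classed differently in the 2 libraries. This exon has 1512 bases, of which 162 are coding. Replicate 1 held 56 reads of this exon alone, as a single ISM model that spans it (chr10:128360968-128362479). In replicate 2 the same exon was divided into an ISM model at its start (chr10:128360968-128361213) with 41 reads and a model of the genomic class over its remainder (chr10:128361213-128362479) with 31 reads. Reads confined to the last exon were 15.1% (exact 95% interval 11.6% to 19.1%) in replicate 1 and 19.5% (15.5% to 23.9%) in replicate 2. With the genomic class left out, Cs-201 held 77.6% of the reads in replicate 1 and 77.2% in replicate 2. This left out the 31 reads over the remainder of the last exon in replicate 2. It kept the 56 last-exon reads of replicate 1, so these 2 shares are not of like reads.

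Cs also had a new splice site found in both libraries, 3 bases inside exon 9, with 2 reads in replicate 1 and 2 reads in replicate 2. Like it, Dlst had a splice site 3 bases inside an exon (exon 7, at its donor), in an NNC model with 5 reads and 3 reads. An ISM model of 9 exons and another of 12 exons held the same Dlst site in replicate 2, with 1 read each. Mdh1 had 1 site that lies 4 bases inside an exon (exon 8, at its acceptor), with 1 read and 4 reads. All 3 sites lie within the coding sequence. The letters below, from the GENCODE M21 transcripts in the direction of each gene, show what the shift removes. They join the last 12 bases before the bases left out, the bases left out in capitals, and the next 12 bases of the spliced transcript.
Cs exon 9, start moved by 3 bases: ctagcaaatcagGAGgtgcttgtctgg
Dlst exon 7, end moved by 3 bases: tcaggaaaactgGTGctgctcctgcta
Mdh1 exon 8, start moved by 4 bases: ggaaccccagagGGAGagttcgtgtcga
In Cs and Mdh1 the bases left out end in AG, the letters found at the end of most introns, and in Dlst they begin with GT, the letters found at the start of most introns. The shifts of 3 bases keep the reading frame and the shift of 4 bases does not.

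The 2-oxoglutarate dehydrogenase complex turns 2-oxoglutarate into succinyl-CoA. Its E1 subunit, which releases the carbon dioxide and is stimulated by calcium in mammals, is encoded by Ogdh on chromosome 11 (chr11:6291633-6356642, plus strand). Its E2 subunit, dihydrolipoamide succinyltransferase, carries the lipoyl group that takes over the succinyl unit and is encoded by Dlst on chromosome 12 (chr12:85110833-85134845, plus strand). Ogdh had 507 reads in replicate 1 and 495 reads in replicate 2, or 816 CPM and 735 CPM. Dlst had 201 reads and 235 reads, or 323 CPM and 349 CPM. Ogdh thus made up 71.6% of the reads of the pair in replicate 1 (exact 95% interval 68.1% to 74.9%) and 67.8% in replicate 2 (64.3% to 71.2%), with an exact Fisher p adjusted over 3 pairs of 0.241. Per kb of the leading model there were 1.69 Ogdh reads for each Dlst read in replicate 1 and 1.41 in replicate 2. With known transcripts only the share of Ogdh was 78.5% and 69.3%, and the exact Fisher test then passed its threshold (adjusted p = 0.0367). Known Dlst reads were 63 in replicate 1 and 95 in replicate 2, and the cause of their difference was not tested.

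Ogdh reads were spread over the chain of 23 exons. Ogdh-201 had 178 reads in replicate 1 and 161 reads in replicate 2, Ogdh-204 had 51 and 50, and Ogdh-205, a retained-intron transcript, 1 and 3. ISM models held 51.1% of the Ogdh reads in replicate 1 and 50.7% in replicate 2. They formed a ladder from the 3′ end. The last exon alone had 112 reads in replicate 1 and 84 reads in replicate 2, the last 3 exons 32 and 31, the last 9 exons 30 and 23, the last 13 exons 17 and 15, and the chain that lacks only exon 1 had 14 and 15. The last intron was crossed by 392 reads and the second by 262 reads in replicate 1, and by 402 and 252 reads in replicate 2.

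Exon 2 of Ogdh, in which the coding sequence begins, was entered from 8 different donor sites. It was entered by 250 reads in replicate 1 and 237 reads in replicate 2. The first exon of Ogdh-201 (donor at chr11:6291693, shared with Ogdh-203 and Ogdh-205) supplied 184 of these in replicate 1, or 73.6% (exact 95% interval 67.7% to 79.0%), and 171 in replicate 2, or 72.2% (66.0% to 77.8%). The first exon of Ogdh-204, whose donor lies 76 bases further on, supplied 52 and 51 reads, or 20.8% and 21.5%. The other 6 donors lie downstream of these in the region of the first exons of Ogdh-207, Ogdh-206 and Ogdh-202, and together supplied 14 and 15 reads, or 5.60% and 6.33%. Among these the first exon of Ogdh-207 was joined to the exon chain of Ogdh-201 in an NIC model with 4 reads in replicate 1 and 6 in replicate 2, and that of Ogdh-202 in another with 6 and 5. An NNC model with a donor past the exon of Ogdh-202 had 3 reads and 1 read. By Fisher's exact test the share of the donor of Ogdh-201 did not pass the threshold between the libraries (exact p = 0.760), with 95% intervals that overlap over most of their width. The start codon of Ogdh-201 lies in exon 2, after all of these first exons.

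**Figure D5:**
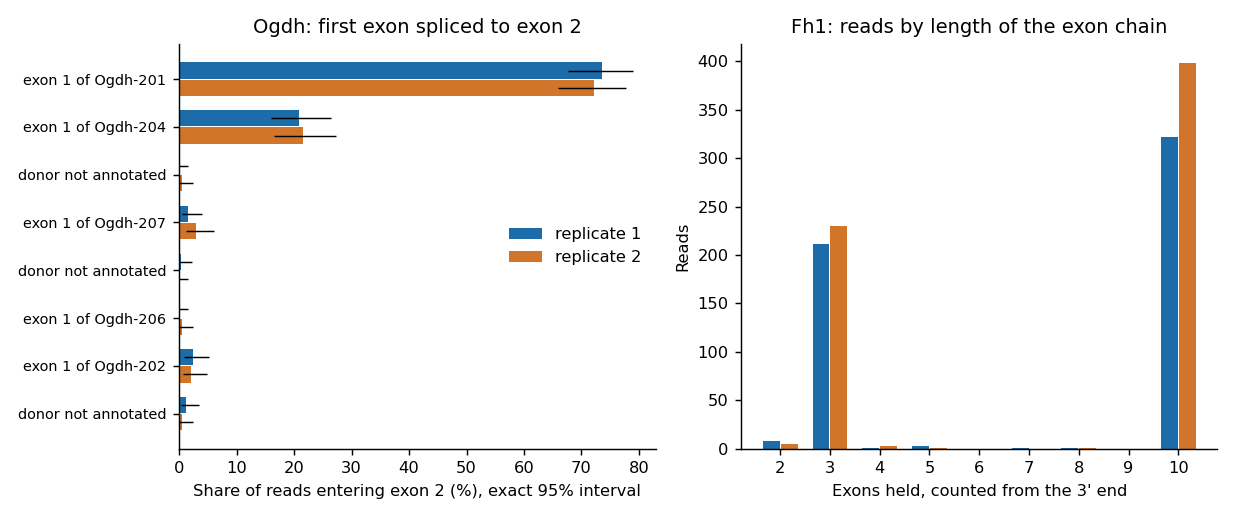
On the left, the share (%) of Ogdh reads entering exon 2 from each donor site, in 5′ to 3′ order from the top, with exact 95% intervals (replicate 1 above replicate 2). On the right, Fh1 reads by the number of exons held, counted from the 3′ end. The donor of Ogdh-201 took 73.6% and 72.2%, and Fh1 reads gather at 3 and at 10 exons.

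The 250 bases upstream of the first RefSeq start of Ogdh (chr11:6291347-6291596, plus strand, GRCm38.p6) are shown because most of the reads that enter exon 2 came through the first exon that follows them. The capitals mark TGACGTCA, the cAMP response element, which reads the same on both strands.
Ogdh promoter: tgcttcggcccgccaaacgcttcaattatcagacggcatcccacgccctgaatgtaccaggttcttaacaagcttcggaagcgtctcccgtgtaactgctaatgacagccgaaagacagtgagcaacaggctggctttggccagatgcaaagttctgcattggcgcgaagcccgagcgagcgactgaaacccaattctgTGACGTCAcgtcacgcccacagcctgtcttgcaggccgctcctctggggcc
RefSeq windows of 300 bases, from 250 before to 50 after a start, were on hand for all 9 genes. TGACGTCA occurred in windows of 2 of the 9 genes, Ogdh and Mdh2, against 2.03% of all 27025 genes with a window, and in 1.79% of all 32851 windows. Ogdh had 6 windows. The motif holds a CpG (C followed by G), and the windows that matched held 25 to 27 CpG, against a median of 7 over all windows. What part this had in the matches was not tested. TCAAGGTCA, bound by the oestrogen-related receptors, was searched on both strands as well and occurred in windows of 0 of the 9 genes, against 0.466% of all genes and 0.423% of all windows. A match of letters is a description of the window and not a binding site.

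Ogdh also has alternative exons between exon 3 and exon 5. Ogdh-201 and Ogdh-204 hold an exon of 103 bases (chr11:6316978-6317080), while Ogdh-202 and Ogdh-203 hold an exon of 91 bases upstream of it (chr11:6316765-6316855), which Ogdh-203 follows with an exon of 45 bases (chr11:6324878-6324922). All 3 are coding. Their letters, from the GENCODE M21 transcripts on the plus strand, show the alternatives between which the reads were counted.
Ogdh exon of 103 bases: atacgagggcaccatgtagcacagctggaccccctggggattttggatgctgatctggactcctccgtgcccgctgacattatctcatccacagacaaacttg
Ogdh exon of 91 bases: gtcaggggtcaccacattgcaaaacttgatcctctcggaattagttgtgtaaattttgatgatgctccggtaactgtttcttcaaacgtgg
Ogdh exon of 45 bases: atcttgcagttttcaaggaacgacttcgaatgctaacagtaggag
The exons of 103 and 91 bases leave the same remainder when divided by 3, and the exon of 45 bases is a multiple of 3, so every choice keeps the frame. Of the reads spliced into exon 5 of Ogdh-201, 264 of 265 in replicate 1 and 261 of 261 in replicate 2 came from the exon of 103 bases, and the exact 95% interval of the share in replicate 1 began at 97.9%. The exon of 91 bases had 1 read in replicate 1 and 0 in replicate 2, and a count of 0 of 261 allows a share of up to 1.15% at a floor of 3 reads. The exon of 45 bases had 0 reads in both, which allows up to 1.13% in replicate 1 and 1.15% in replicate 2 at the same floor.

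Dlst differed from the other 8 genes in that its most abundant model was its last exon alone. This exon has 1470 of the 2764 bases of Dlst-201 and 132 coding bases. It held 109 reads in replicate 1, or 54.2% of the Dlst reads (exact 95% interval 47.1% to 61.3%), and 117 reads in replicate 2, or 49.8% (43.2% to 56.4%). Dlst-201, the coding transcript of 15 exons, had 60 and 94 reads, and the other known models of Dlst, Dlst-212, Dlst-213 and Dlst-205, had 1 or 2 reads in 1 library each. Counted over known transcripts only, the level of Dlst was 184 CPM, against 336 ± 17.9 CPM (SD, n = 2) over all its reads. Each value is scaled to its own reads, so the first is not a part of the second. Known models were 31.3% of the Dlst reads in replicate 1 and 40.4% in replicate 2. By annotated length, a long last exon did not always go with a high share of reads confined to it. Suclg2, with the longest annotated last exon, of 2156 bases, had 7.76% and 5.69% of its reads there. Fh1, with 1193 annotated bases, had 0.181% and 0.311%. Both exons may be shorter in these reads. The new spliced models of Suclg2 ended at chr6:95474142, short of the annotated end at chr6:95473009. Those of Fh1 ended at chr1:175601378 or chr1:175601384, short of chr1:175600374. What part exon length had in these shares was not tested. The tables give the ends of models and not of each read.

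Succinate-CoA ligase splits succinyl-CoA and makes a nucleoside triphosphate, the only step of the cycle that does so directly. Its alpha subunit is encoded by Suclg1 (chr6:73248382-73276911, plus strand) and pairs either with the ATP-forming beta subunit encoded by Sucla2 (chr14:73525319-73596142, plus strand) or with the GTP-forming beta subunit encoded by Suclg2 (chr6:95473009-95718800, minus strand). Suclg1 had 252 reads in replicate 1 and 266 reads in replicate 2, or 406 CPM and 395 CPM. Sucla2 had 420 and 463 reads, or 676 CPM and 687 CPM. Suclg2 had 116 and 123 reads, or 187 CPM and 183 CPM.

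Of the beta subunit reads, Sucla2 supplied 78.4% in replicate 1 (exact 95% interval 74.6% to 81.8%) and 79.0% in replicate 2 (75.5% to 82.2%). The share did not pass Fisher's exact test between the libraries (exact p adjusted over 3 pairs = 0.827). Suclg2-204 is annotated as the longer transcript, with 3367 bases against 2229 bases of Sucla2-203. The excess was thus larger per kb of annotated length, at 5.47-fold in replicate 1 and 5.69-fold in replicate 2, than in reads, at 3.62-fold and 3.76-fold. New models of 11 exons had 2228 to 2718 bases in Suclg2 and 1727 to 2427 bases in Sucla2. The ratio was not computed with such lengths. Both beta subunits together had 2.13 reads for each Suclg1 read in replicate 1 and 2.20 in replicate 2, and 1.34 and 1.40 per kb.

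Each of the 3 subunits had 1 main coding model. Sucla2-203 held 386 reads in replicate 1 and 418 reads in replicate 2, Suclg1-201 held 204 and 222 reads, and Suclg2-204 held 101 and 110 reads. Sucla2-201 had 1 read, in replicate 1. Suclg1 had in addition an ISM model of its last 2 exons with 25 and 32 reads, and its last intron was crossed by 244 reads and the one before it by 219 reads in replicate 1, and by 258 and 226 reads in replicate 2. Sucla2 had the most new spliced models found in both libraries, 5, each with 1 to 3 reads per library. An NIC model skipped exon 9 (121 bases) with 2 reads in replicate 1 and 2 in replicate 2, and another skipped exon 2 (181 bases) with 2 and 1. An NNC model moved the donor of exon 10 by 4 bases into the intron, with 1 and 3. The remaining 2 spliced out 199 or 213 bases of the last exon, after the coding sequence, with 1 and 2 reads each. None of these numbers of bases except 213 is a multiple of 3.

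The models of the genomic class with at least 5 reads lay in the last exons of these genes. Suclg2 had a model of this class with 9 reads in replicate 1 (chr6:95474142-95474281) and 1 with 7 reads in replicate 2 (chr6:95474142-95474432), which share their left edge. Sucla2 had a model with 6 reads of this class in replicate 1 (chr14:73595406-73595673), which overlapped an ISM model with 7 reads in replicate 2 (chr14:73595374-73595783).

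Fumarase, which hydrates fumarate to malate, is encoded by Fh1 on chromosome 1 (chr1:175600374-175625635, minus strand). Fh1 had 554 reads in replicate 1 and 644 reads in replicate 2, or 891 CPM and 956 CPM. Its reads fell into 2 groups. Fh1-201, the coding transcript of 10 exons, had 322 reads in replicate 1 and 398 reads in replicate 2. Fh1-203, annotated as a retained-intron transcript of 3 exons (chr1:175601378-175606647), had 211 and 230 reads, which was 39.0% of the known reads in replicate 1 (exact 95% interval 34.9% to 43.3%) and 36.3% in replicate 2 (32.6% to 40.2%). Fh1-202, of 2 exons and of the same type, had 8 and 5 reads.

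The introns of Fh1-203 are the last 2 introns of Fh1-201, so a read of 3 exons is assigned to it whether or not it reaches into the retained part, which extends exon 8 by 465 bases. Reads with between 4 and 9 exons of the chain numbered only 6 in replicate 1 and 5 in replicate 2. The chain of 3 exons was thus separated from the full chain by a gap in both libraries. In the reads crossing an intron this appeared as 1 step, with 545 reads at intron 8 and 332 reads at intron 7 in replicate 1, and 636 and 405 reads in replicate 2. The step was 38.4% of the gene's reads in replicate 1 and 35.9% in replicate 2, while the largest step between neighbouring introns in the other 8 genes was 15.4% and 16.4%, at the first intron of Ogdh. The last 3 exons hold 422 of the 1521 coding bases of Fh1-201. The table does not give where these reads begin, so which part of them holds the retained intron is not known.

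Malate dehydrogenase oxidises malate to oxaloacetate. The mitochondrial enzyme is encoded by Mdh2 on chromosome 5 (chr5:135778480-135790398, plus strand) and the cytosolic enzyme by Mdh1 on chromosome 11 (chr11:21556787-21572367, minus strand). Mdh1 had 1233 reads in replicate 1 and 1324 reads in replicate 2, or 1984 CPM and 1965 CPM. Mdh2 had 1005 reads and 992 reads, or 1617 CPM and 1472 CPM. Mdh1 supplied 55.1% of the reads of the pair in replicate 1 (exact 95% interval 53.0% to 57.2%) and 57.2% in replicate 2 (55.1% to 59.2%), and the shares did not pass Fisher's exact test between the libraries (exact p adjusted over 3 pairs = 0.241). Per kb of annotated length the order turned, with 0.842 Mdh1 reads for each Mdh2 read in replicate 1 and 0.916 in replicate 2. The annotated lengths are 2122 bases for Mdh1-201 and 1456 bases for Mdh2-201. New models of 9 exons had 1381 to 2364 bases in Mdh1 and 1268 to 1390 bases in Mdh2. The ratio was not computed with such lengths, so the turn rests on the annotated ones.

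Both genes were read almost wholly as 1 coding transcript of 9 exons. Mdh1-201 held 1144 reads in replicate 1 and 1219 in replicate 2, or 92.8% and 92.1% of the gene's reads. Mdh2-201 held 918 and 916 reads, or 91.3% and 92.3%, and Mdh2-202 had 1 read, in replicate 1. Reads confined to the last exon were 1.14% and 0.906% in Mdh1 and 2.09% and 1.92% in Mdh2. Mdh2 had a new donor 2 bases beyond the end of exon 3 with 3 reads in replicate 1 and 4 reads in replicate 2. Mdh1 had, beside the acceptor shown above, an NIC model that skips exon 8 (90 bases) with 2 reads and 1 read.

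Genes of similar sequence held few of the reads. Ogdhl, a paralogue of Ogdh, had 6 reads in replicate 1 and 3 reads in replicate 2. Csl, Dhtkd1 and Mdh1b, relatives of Cs, Ogdh and Mdh1, had 0 listed reads, which allows up to 4.83 CPM in replicate 1 and 4.45 CPM in replicate 2.

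Another 28 genes that supply, share or surround the cycle were counted as a list. It comprised the aconitases, the isocitrate and succinate dehydrogenases, the remaining parts of the 2-oxoglutarate dehydrogenase complex, malic enzymes, aminotransferases, pyruvate carboxylase, the carriers of the inner membrane and the enzymes that make lipoic acid. Sdhb, the iron-sulphur subunit of succinate dehydrogenase, was the most abundant at 2159 ± 89.4 CPM (SD, n = 2), and Lipt2, a lipoyl transferase, the least, with 1 read in each library. Of 27 genes tested, 3 were called by the exact binomial test, where 2.07% of all genes were called. All 3 were lower in replicate 1, and the median log2 ratio of the 27 was -0.088, against -0.00053 over all genes.

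Slc25a1, the mitochondrial citrate carrier, had 2 reads in replicate 1 and 32 reads in replicate 2 (adjusted p = 1.5e-05, exact binomial test). Acly, the cytosolic ATP citrate lyase, had 12 and 54 reads (adjusted p = 7.5e-05, exact binomial test). Lias, the lipoic acid synthase, which makes the cofactor that the Dlst protein carries, had 18 and 52 reads (adjusted p = 0.0114, exact binomial test). Fat cell markers stood at 37.0 CPM in replicate 1, against 518 CPM in replicate 2, and the airway and atrial markers were lower in replicate 1 as well. Their part in these 3 differences was not tested. The 9 enzymes lay within 1.11-fold between the same libraries.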

How the data were processed

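Unnormalised counts (long reads per model) were used as deposited, with the deposited models, which name TALON as their source. Alignment to mm10 and the GENCODE M21 annotation are given per the submitters' notes with each library. No aligner, program version or filter is named in the sources used here. The authors annotated and counted each library on its own, and models at 0 reads are not listed.

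Here, counts were summed per gene, spike-in reads (12759 in replicate 1 and 12890 in replicate 2) left out. Models were matched between libraries by identifier, by exact chain of introns, or for single exons by 50% reciprocal overlap. TMM factors (edgeR 4.0.16, R 4.3.3; 0.986 and 1.01) came from genes with at least 10 reads. Genes with at least 10 reads over both libraries had an exact two-sided binomial test. Shares had Fisher's exact test, with at least 10 reads in each library. Both were adjusted by Benjamini-Hochberg and called at 0.05. log2 ratios add 0.5 reads. Intervals are exact Clopper-Pearson 95%, and a count of 0 was bounded at 3 reads. CPM were computed here. Alternatives used DESeq2 1.42.0 size factors, other filters, classes and matching. Python 3.11.15 ran the remainder (scipy 1.17.1 for tests, pandas 2.3.3 and numpy 2.4.6 for tables, matplotlib 3.10.9 for plots). The tests were run on simulated data first.

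All 9 genes are described. Of their models the text names the 3 known models with most reads, NIC and NNC models found in both libraries or with at least 5 reads, and genomic models with at least 5 reads; ISM models are given by gene. Of the wider list it names the highest, the lowest and those called. Members and lists were chosen with earlier results of these data known.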

Additional observations from a re-analysis of the deposited data

Results flagged for a closer look

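Loci without annotation on the strand opposite to Ogdh, within the bounds of that gene, held 16 reads over both libraries, 7 in replicate 1 and 9 in replicate 2, in data that no comparison above uses. This is above the 3 reads that a count of 0 allows in each library. No single model of these had more than 2 reads.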

How the results depend on the processing

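No paired analysis was possible because the series has 1 group. Under every alternative tried, 0 of the 9 genes were called for reads, leading model or known share. The number of all genes called for reads was 102 with known transcripts only, where 5399 genes were tested, 216 of 6712 without the genomic class and 161 of 2897 at 50 or more reads, against 156 of 7545. For the leading share it was 127 with the genomic class kept and 0 among known reads, against 73, and for the known share 73 without the genomic class, against 7. The cause was not tested. The summed level of the 9 genes was 9339 CPM with known transcripts only and 8024 CPM without the genomic class, against 7394 CPM, each scaled to its own reads. The share of Ogdh beside Dlst was 73.8% with known transcripts only and then differed between libraries, as given above. Leaving out a library gave 78.4% to 79.0% for Sucla2, 55.1% to 57.2% for Mdh1 and 67.8% to 71.6% for Ogdh, and 7291 to 7497 CPM for the summed level. Of 36 ratios of a gene under an alternative, 6 changed sign, all near 0 and none called. Suclg1 had a log2 ratio of -0.0018 with total reads and -0.022 with known transcripts only. Suclg2 had -0.0081 with total reads, -0.023 with known transcripts only and -0.0047 without the genomic class. Mdh1 had -0.027 with total reads. The smallest adjusted p among the 36 was 0.321 (exact binomial test).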
